A study of Bos taurus with 6 samples.

Results

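The genes of pyruvate entry and the citric acid cycle were examined in longissimus dorsi, the long muscle of the back, of Wagyu and Chinese Red Steppes cattle. The 34 genes were taken from the expression table by their symbols, out of 21972 genes in all, and every one of them was found. They comprise 2 subunits of the mitochondrial pyruvate carrier, 5 subunits of the pyruvate dehydrogenase complex, 4 kinases and 3 phosphatase genes that act on this complex, 14 enzymes or subunits of the cycle with their isoenzymes, and 6 enzymes that fill the cycle or branch from it.

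The muscle was that of 3 males of Japanese black cattle, called Wagyu here (libraries WC616, WC719, WC921), and of 3 males of Chinese Red Steppes cattle (libraries RC4, RC5, RC6). Each animal was 28 months old, was fed corn and hay, and gave 1 poly(A) library. Where the values of a breed are listed, they follow this order of the libraries. The males of a breed were born from cows inseminated with semen of a single bull and were kept on a single farm, so breed, sire and farm cannot be told apart. The p-values below measure only the spread between these 6 animals.

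Pyruvate made by glycolysis in the cytosol enters the mitochondrion through the carrier and is turned into acetyl-CoA by the pyruvate dehydrogenase complex. The kinases switch this complex off by phosphorylation and the phosphatases switch it on again. The cycle then oxidises the acetyl group, and the branch enzymes exchange its acids with amino acids, with gluconeogenesis and with ketone bodies. In skeletal muscle the cycle is most active in oxidative fibres, and pyruvate dehydrogenase kinase 4 is known to rise in fasting, when fat replaces glucose as fuel.

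Levels are given in FPKM, the fragments of a gene scaled to its length and to all fragments counted to genes in the library, so they can be compared between genes. The 34 genes together took 0.75% to 0.997% of the reads placed on genes in each library. The libraries held 15438095 to 16197141 reads counted to genes. The defining markers of skeletal muscle were high throughout, with alpha skeletal actin (ACTA1) at 31588 to 45751 FPKM. Fat cell markers were low, their summed level running from 5.56 to 13.4 FPKM in Wagyu and from 3.71 to 13.7 in Chinese Red Steppes, and leptin (LEP) was at 0 in 4 of the 6 libraries. RC6 stood apart from RC4 and RC5, and its values are given beside each result that they touch. In such bulk tissue, fewer cells of a type and less RNA per cell cannot be told apart.

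**Figure D1:**
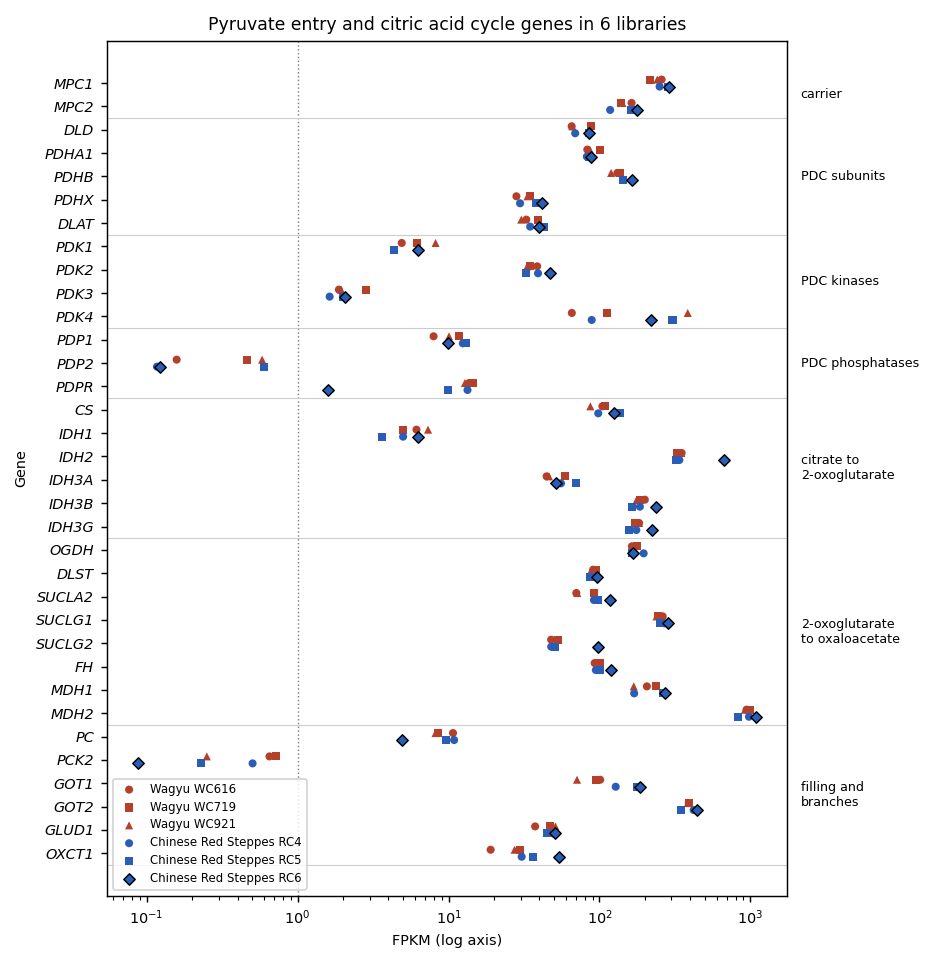
FPKM (log axis) of the 34 genes in each of the 6 libraries, grouped by role, with Wagyu in red and Chinese Red Steppes in blue. MDH2 lies highest at 822 to 1092 FPKM, PCK2 and PDP2 lie below the dotted line at 1 FPKM in every library, and RC6 (outlined diamonds) lies far to the left for PDPR.

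The levels spanned a wide range and most of them varied little. MDH2, the mitochondrial malate dehydrogenase that makes oxaloacetate, had the highest mean of the 34 at 958 FPKM. GOT2, the mitochondrial aspartate aminotransferase, averaged 396 FPKM, IDH2, the mitochondrial NADP-dependent isocitrate dehydrogenase, 392 FPKM, and SUCLG1, the alpha subunit shared by both succinyl-CoA ligases, 258 FPKM. PCK2, the mitochondrial phosphoenolpyruvate carboxykinase, lay at 0.087 to 0.721 FPKM on 3 to 26 reads. PDP2, the second catalytic subunit of the phosphatase, lay at 0.117 to 0.598 FPKM on 3 to 15 reads. These 2 genes fell under the mean of 1 FPKM that was required for the test, which left 32 of the 34 genes among 9990 tested.

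None of the 32 tested genes passed the comparison of the breeds. Fitted with limma on log2(FPKM + 1) over all 9990 genes, with Benjamini-Hochberg adjusted p below 0.05 as the threshold, 2 genes were called in all (0.02%) and neither was one of the 32. At an unadjusted p below 0.05, 3 of the 32 were lower in Wagyu, GOT1, OXCT1 and SUCLA2, against 5.87% of all genes, and none was higher. Without RC6, 1 of the 32 was lower at this level, where 467 of the 9990 genes were. Leaving out another single library gave 1 to 4 lower. The 3 Wagyu values all lay below the 3 Chinese Red Steppes values for GOT1, OXCT1 and PDHB, 3 of 32 genes against 9.16% of all genes. They all lay above for none of the 32, against 11.4% of all genes.

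The small differences leaned to one side. Of the 32 genes, 26 had a log2 fold change below 0, that is lower in Wagyu, which is 81.2% against 46.3% of all genes tested. The median log2 fold change was -0.12 over the 32 genes and 0.03 over all genes. All 32 genes were read in the same 6 libraries, so they are not separate observations. The median deviation of the genes from their own means had an SD of 0.08 on the log2 scale between libraries of a breed. Without RC6, 19 of 32 lay below 0 and the median was -0.07, against 0.03 over all genes. The summed FPKM of the 34 genes was 4221, 4361 and 4362 in Wagyu and 4329, 4514 and 5464 in Chinese Red Steppes. RC6 was thus the highest, and RC4 lay within the range of the Wagyu libraries.

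**Figure D2:**
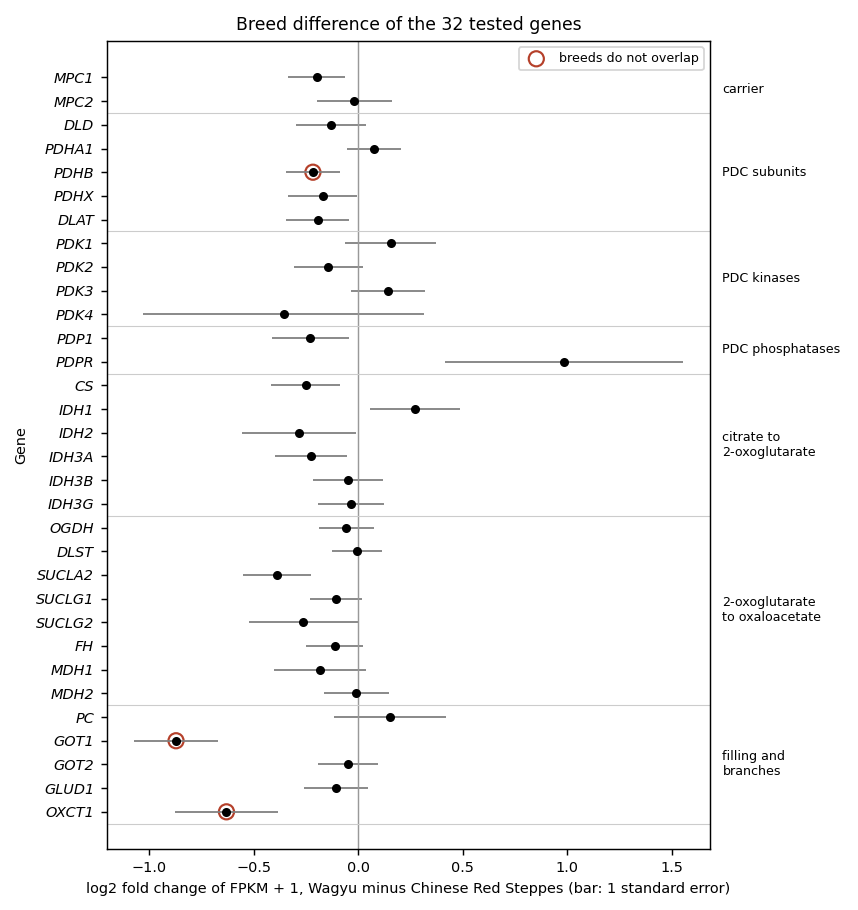
Log2 fold change of FPKM + 1, Wagyu minus Chinese Red Steppes, with 1 standard error from limma, for the 32 tested genes by role. 26 points lie below 0, the circled genes GOT1, OXCT1 and PDHB are those without overlap between the breeds, and the longest bars belong to PDK4 and PDPR.

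GOT1 showed the smallest p of the 34 genes. It encodes the cytosolic aspartate aminotransferase, which with GOT2 and the malate dehydrogenases forms the malate-aspartate shuttle that carries reducing power from cytosolic NADH into mitochondria. GOT1 was at 101, 94.5 and 71.0 FPKM in Wagyu and at 128, 178 and 186 FPKM in Chinese Red Steppes. Every Wagyu library lay below every Chinese Red Steppes library. The means were 88.9 ± 15.8 and 164 ± 31.3 FPKM (SD, n = 3 each), with a log2 fold change of -0.87 (standard error 0.20, limma adjusted p = 0.187). Without RC6 the log2 fold change was -0.77. On reads recovered from the FPKM, edgeR gave an adjusted p of 0.173 and DESeq2 one of 0.00994, and GOT1 was the only one of the 34 genes that DESeq2 called, where 0.677% of all genes were called lower. The DESeq2 call was lost without WC719 (adjusted p = 0.102), without WC921 (0.144) or without RC5 (0.117) and held without each of the others.

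Its mitochondrial partner overlapped between the breeds. GOT2 was at 391, 390 and 384 FPKM in Wagyu and at 421, 348 and 443 FPKM in Chinese Red Steppes. The Wagyu values lay inside the range of the Chinese Red Steppes values, and the log2 fold change was -0.05 (standard error 0.14, limma adjusted p = 0.899). The ratio of GOT1 to GOT2 within a library, which no scaling between libraries can change, was 0.259, 0.242 and 0.185 in Wagyu and 0.304, 0.512 and 0.419 in Chinese Red Steppes. The ratios did not overlap, with a difference of -0.83 on the log2 scale (exact permutation test, two-sided, p = 0.1, the smallest that 3 against 3 allow). Of 10 such ratios between members it was the only one without overlap, and its Benjamini-Hochberg adjusted p over the 10 was 0.9.

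The malate dehydrogenases of the same shuttle showed no separation of the breeds. MDH1, the cytosolic form, ran from 169 to 238 FPKM in Wagyu and from 170 to 272 in Chinese Red Steppes, and MDH2 was at 943, 994 and 920 FPKM in Wagyu and at 978, 822 and 1092 FPKM in Chinese Red Steppes. SLC25A12, which exchanges aspartate for glutamate across the inner membrane, was at 46.0, 42.1 and 39.6 FPKM in Wagyu and at 51.7, 64.2 and 59.1 in Chinese Red Steppes. Its values did not overlap (log2 fold change -0.44, standard error 0.14), but it did not pass limma (adjusted p = 0.268). SLC25A13 and SLC25A11, also carriers of this shuttle, overlapped between the breeds, with log2 fold changes of 0.32 and -0.08. Both were named after their values were seen.

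OXCT1 encodes succinyl-CoA:3-oxoacid CoA transferase, which activates ketone bodies for use as fuel with succinyl-CoA of the cycle. It was at 19.0, 29.6 and 27.4 FPKM in Wagyu and at 30.5, 36.2 and 54.0 FPKM in Chinese Red Steppes. The highest Wagyu value, in WC719, lay just under that of RC4, and RC6 was the highest. The log2 fold change was -0.63 (standard error 0.25, limma adjusted p = 0.322) and shrank to -0.40 without RC6.

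BDH1 and ACAT1, which precede and follow OXCT1 in the use of 3-hydroxybutyrate, were high in RC6 alone. BDH1, the mitochondrial 3-hydroxybutyrate dehydrogenase, was at 67.9 FPKM in RC6 and at 2.15 to 5.23 FPKM in the other libraries. ACAT1, the mitochondrial acetoacetyl-CoA thiolase, was at 152 FPKM in RC6 and at 47.6 to 73.3 FPKM in the others. None of the 3 tested genes of this ketone body list passed limma, and all 3 had a fold change below 0, as did 2 of the 3 without RC6.

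Both subunits of the pyruvate carrier overlapped between the breeds. MPC1 was at 258, 215 and 242 FPKM in Wagyu and at 250, 283 and 287 FPKM in Chinese Red Steppes. WC616 lay above RC4, so the breeds overlapped (log2 fold change -0.20, standard error 0.14, limma adjusted p = 0.532). MPC2, the other subunit, ran from 140 to 163 FPKM in Wagyu and from 118 to 178 FPKM in Chinese Red Steppes. The ratio of MPC1 to MPC2 stayed between 1.54 and 2.13 in all 6 libraries.

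The 5 subunits of the pyruvate dehydrogenase complex stood at 28.2 to 164 FPKM, and 4 of them had a fold change below 0. PDHB, the beta subunit of the first enzyme, was at 131, 137 and 119 FPKM in Wagyu and at 144, 144 and 164 FPKM in Chinese Red Steppes. The values did not overlap, but the step from WC719 to RC4 was small beside the spread (log2 fold change -0.22, standard error 0.13, limma adjusted p = 0.473). PDHA1, the alpha subunit that carries the phosphorylation sites, went the other way by 0.08 on the log2 scale, with 83.1 to 101 FPKM in Wagyu and 82.5 to 87.7 FPKM in Chinese Red Steppes.

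DLAT, the acetyltransferase core of the complex, was at 32.8, 39.2 and 30.3 FPKM in Wagyu and at 34.8, 42.8 and 39.7 FPKM in Chinese Red Steppes. WC719 lay between the Chinese Red Steppes libraries (log2 fold change -0.19, standard error 0.15, limma adjusted p = 0.582). PDHX, which anchors the third enzyme to the core, ran from 28.2 to 34.5 FPKM in Wagyu and from 29.8 to 41.6 FPKM in Chinese Red Steppes. DLD, the third enzyme, which the complex shares with 2-oxoglutarate dehydrogenase, ran from 65.4 to 88.3 and from 69.1 to 85.5 FPKM.

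The kinases of the complex held the gene that varied most between animals of a breed. PDK4 was at 65.6, 112 and 384 FPKM in Wagyu and at 88.8, 305 and 221 FPKM in Chinese Red Steppes. The lowest and the highest library were both Wagyu and differed 5.86-fold. The SD within a breed was 1.12 on the log2 scale, at the percentile 99.3 of all genes tested, and the breeds differed by -0.36 (standard error 0.67, limma adjusted p = 0.839). Leaving out 1 library at a time moved this value between -1.07 without WC921 and 0.19 without WC616.

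The other kinases varied less between animals. PDK2 was at 38.7, 34.5 and 33.2 FPKM in Wagyu and at 39.2, 32.6 and 47.3 FPKM in Chinese Red Steppes. PDK1 was at 4.90, 6.21 and 8.21 FPKM in Wagyu and at 6.34, 4.33 and 6.24 FPKM in Chinese Red Steppes. PDK3 was at 1.88, 2.82 and 1.94 FPKM in Wagyu and at 1.63, 1.99 and 2.06 FPKM in Chinese Red Steppes. All 3 overlapped between the breeds, with log2 fold changes of -0.14 for PDK2, 0.16 for PDK1 and 0.14 for PDK3.

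PDK4 made up most of the kinase message in every library. Its share of the summed FPKM of the 4 kinases was 59.1%, 72.0% and 89.9% in Wagyu and 65.3%, 88.7% and 79.9% in Chinese Red Steppes. Set against PDHA1, the subunit that the kinases phosphorylate, PDK4 ran from 0.79-fold in WC616 to 4.45-fold in WC921. FOXO1, a transcription factor known to act on PDK4 in fasting, was at 1.95, 7.64 and 24.8 FPKM in Wagyu. It was at 12.2, 11.9 and 6.49 FPKM in Chinese Red Steppes. Its order was that of PDK4 in Wagyu only. In Chinese Red Steppes FOXO1 was highest in RC4, where PDK4 was lowest of that breed. GLUL, glutamine synthetase, was highest in WC921 (485 FPKM) and RC5 (419 FPKM), the libraries in which PDK4 was highest, and ran from 103 to 194 FPKM in the others. Its order was also that of PDK4 in Wagyu only. GLUL was lowest in RC6 (103 FPKM) and at 194 FPKM in RC4, whereas PDK4 was higher in RC6 than in RC4. FOXO1 and GLUL were named after their values were seen, and a link of either to PDK4 was not tested.

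**Figure D3:**
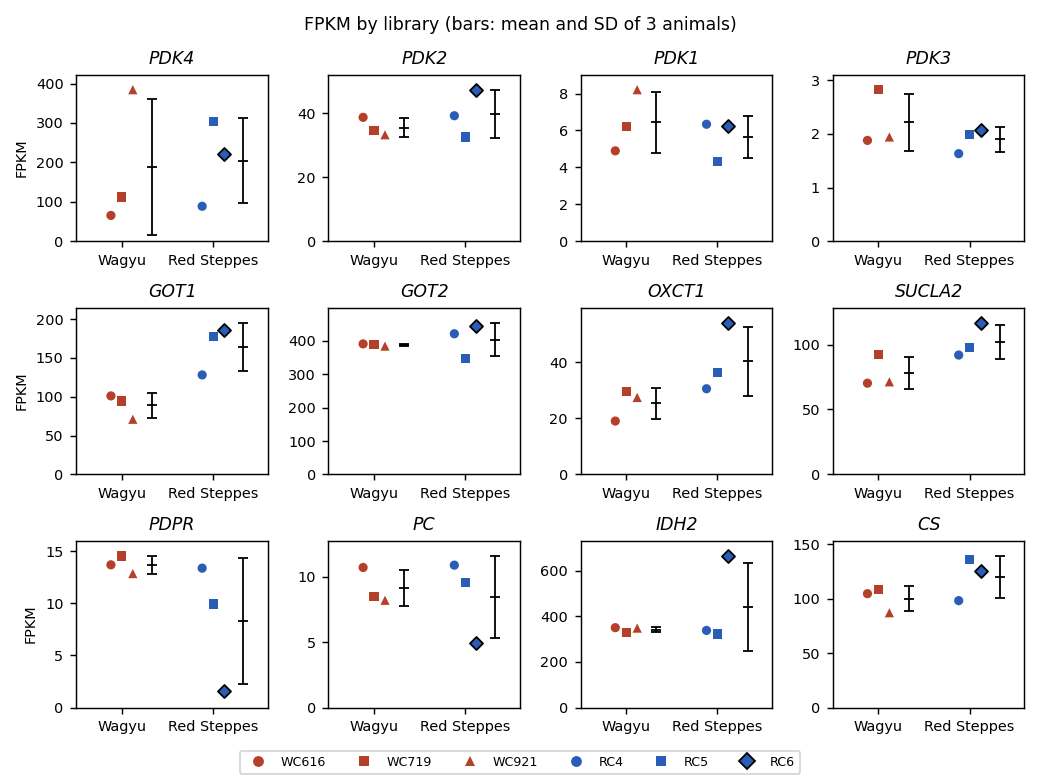
FPKM by library for 12 genes, with the mean and SD of the 3 animals of each breed as bars and RC6 as an outlined diamond. GOT1 separates the breeds while GOT2 does not, PDK4 spreads from 65.6 to 384 FPKM within Wagyu, and RC6 lies apart from RC4 and RC5 for PDPR, PC and IDH2.

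The phosphatase genes differed among themselves. PDP1, the catalytic subunit, was at 7.96, 11.8 and 10.1 FPKM in Wagyu and at 12.4, 13.0 and 9.92 FPKM in Chinese Red Steppes. The breeds overlapped through RC6 (log2 fold change -0.23, standard error 0.18, limma adjusted p = 0.592). PDP2 was far lower, and PDP1 exceeded it 17.3-fold to 106-fold within a library.

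PDPR, the regulatory subunit of the phosphatase, was low in 1 library. It was at 13.7, 14.5 and 12.8 FPKM in Wagyu and at 13.4, 9.92 and 1.59 FPKM in Chinese Red Steppes. The value in RC6 rested on 71 reads, with an exact 95% Poisson interval of 1.24 to 2.01 FPKM for counting error alone, against 450 to 679 reads in the other libraries. RC6 was 2.27 lower than the mean of RC4 and RC5 on the log2 scale (a difference of -2.27), at the percentile 0.3 of all genes tested. The log2 fold change between the breeds was the largest of the 32 genes at 0.98 (standard error 0.57, limma adjusted p = 0.461) and was 0.23 without RC6.

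The nearest tested genes on each side of PDPR in the RefSeq annotation were looked up after this value was seen. Protein-coding genes that were not tested were passed over, so these need not be its direct neighbours. Of the 3 tested genes taken before it and the 3 taken after it, GLG1 was also low in RC6. It was at 1.28 FPKM there, against 4.39 in RC4, 3.12 in RC5 and 5.50 to 5.66 FPKM in Wagyu. The other 5, DDX19B, DDX19A, ST3GAL2, WDR59 and ZNRF1, differed between RC6 and the mean of RC4 and RC5 by -0.35 to 0.32 on the log2 scale. The order of these genes was read from a newer assembly (ARS-UCD2.0) than the one behind the files.

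In the first stretch of the cycle, CS makes citrate and the isocitrate dehydrogenases make 2-oxoglutarate. CS was at 105, 108 and 87.0 FPKM in Wagyu and at 98.2, 136 and 125 FPKM in Chinese Red Steppes. RC4 lay within the Wagyu range (log2 fold change -0.25, standard error 0.17, limma adjusted p = 0.516). IDH1, the cytosolic NADP-dependent form, was at 6.13, 5.01 and 7.32 FPKM in Wagyu and at 5.00, 3.65 and 6.27 FPKM in Chinese Red Steppes. It was one of 6 genes with a fold change above 0 (log2 0.27, standard error 0.21, limma adjusted p = 0.586).

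IDH2 was even in 5 libraries and high in RC6. It was at 350, 328 and 348 FPKM in Wagyu and at 338, 322 and 665 FPKM in Chinese Red Steppes. The log2 fold change of -0.28 (standard error 0.27, limma adjusted p = 0.656) became 0.05 without RC6.

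Of the 3 subunits of the NAD-dependent isocitrate dehydrogenase, IDH3A did not vary with the others. IDH3A, the catalytic subunit, was at 44.7, 59.5 and 46.3 FPKM in Wagyu and at 55.6, 69.7 and 51.3 FPKM in Chinese Red Steppes, so that RC5 was the highest. IDH3B and IDH3G, the other subunits, were lowest in RC5, at 165 and 157 FPKM, and highest in RC6, at 238 and 224 FPKM. The log2 fold changes were -0.23 for IDH3A, -0.05 for IDH3B and -0.03 for IDH3G, and those of IDH3B and IDH3G turned positive without RC6, at 0.10 and 0.11. The ratio of IDH2 to IDH3A ran from 4.62 in RC5 to 13.0 in RC6, with 5.51 to 7.85 in Wagyu.

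**Figure D4:**
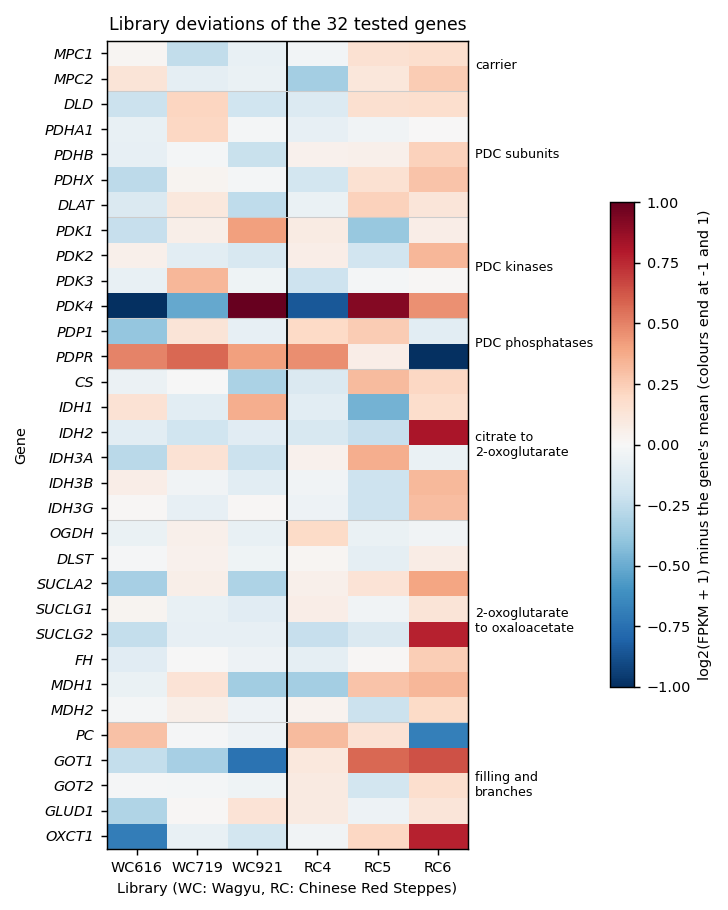
Deviation of each library from the gene's mean over the 6 libraries, in log2(FPKM + 1), for the 32 tested genes by role. RC6 is above the mean for 27 genes, PDK4 changes sign within both breeds, and RC5 is high for IDH3A but low for IDH3B and IDH3G.

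In the second stretch of the cycle, all 8 genes had a fold change below 0, from -0.39 to -0.01 on the log2 scale, and none passed. RC6 was the highest library for 7 of the 8, and without it 5 of the 8 lay below 0, with DLST at 0.03, MDH2 at 0.09 and SUCLG2 at 0.06. SUCLA2, the beta subunit of the ATP-forming succinyl-CoA ligase, was at 70.3, 92.5 and 71.3 FPKM in Wagyu and at 91.9, 97.8 and 117 FPKM in Chinese Red Steppes. WC719 lay just above RC4, so the breeds overlapped (log2 fold change -0.39, standard error 0.16, limma adjusted p = 0.336). Without RC6 the log2 fold change of SUCLA2 was -0.29. SUCLG2, the beta subunit of the GTP-forming ligase, was at 47.8 to 53.4 FPKM in the other 5 libraries and at 97.1 FPKM in RC6, with a log2 fold change of -0.26.

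DLST and SUCLG1 had the smallest spread within a breed of the 32 genes, with SDs of 0.07 and 0.08 on the log2 scale. SUCLG1 was at 262, 244 and 239 FPKM in Wagyu and at 269, 252 and 283 FPKM in Chinese Red Steppes. DLST, the core of the 2-oxoglutarate dehydrogenase complex, spanned 86.1 to 96.4 FPKM over all 6 libraries, a 1.12-fold range, and OGDH, its first enzyme, spanned 164 to 196 FPKM. FH, fumarase, lay at 92.9 to 101 FPKM in 5 libraries and at 120 FPKM in RC6.

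The other branch enzymes also overlapped between the breeds. PC, pyruvate carboxylase, which refills oxaloacetate, was at 10.7, 8.47 and 8.20 FPKM in Wagyu and at 10.9, 9.57 and 4.93 FPKM in Chinese Red Steppes. Its log2 fold change of 0.15 became -0.16 without RC6, the lowest library. GLUD1, glutamate dehydrogenase, ran from 37.5 to 51.1 FPKM in Wagyu and from 45.0 to 50.6 FPKM in Chinese Red Steppes.

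RC6 differed from RC4 and RC5 over much of the set. On log2(FPKM + 1), 27 of the 32 genes (84.4%) were higher in RC6 than the mean of RC4 and RC5, against 53.7% of all genes tested, with a median difference of 0.21 against 0.03. RC6 was the highest of the 6 libraries for 18 of the 34 genes. Among the genes that were higher in RC6, the largest differences were those of IDH2 (1.01), SUCLG2 (0.96) and OXCT1 (0.68). The 5 genes that were lower in RC6 were PDPR (-2.27), PC (-0.92), PDP1 (-0.33), IDH3A (-0.27) and OGDH (-0.09). With 1 library on one side there is no test of these differences.

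Fibre markers moved with these genes in RC6. All 9 slow fibre markers were higher in RC6 than the mean of RC4 and RC5, with a median difference of 1.57 on the log2 scale, and none of 8 fast fibre markers was, with a median of -1.15. The summed FPKM of the slow markers was 81287 in RC6 and 26123 to 30190 in RC4 and RC5, and 37042 to 49238 in Wagyu. Fast markers summed to 40906 FPKM in RC6, to 80893 and 90196 in RC4 and RC5, and to 62480 to 77163 in Wagyu. Genes encoded in mitochondrial DNA took 10.4% of the reads in RC6 and 4.79% to 5.80% in the other libraries. The part of fibre type in the values of the 34 genes was not tested.

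**Figure D5:**
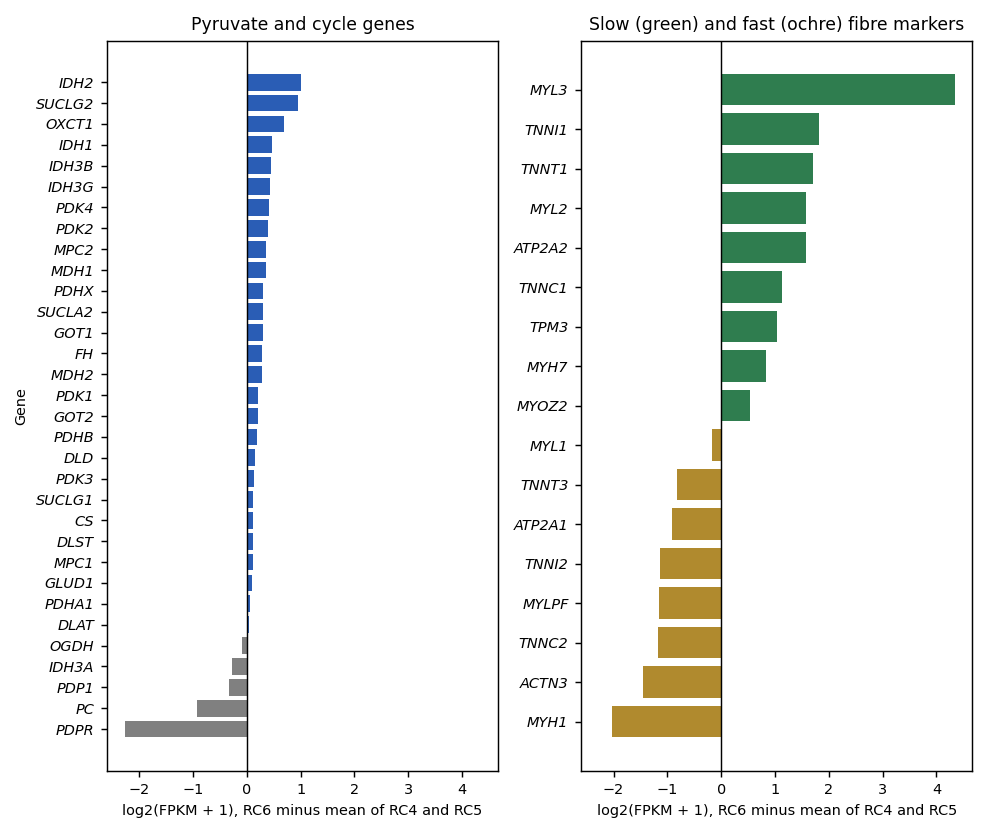
Difference in log2(FPKM + 1) between RC6 and the mean of RC4 and RC5 for the 32 tested genes (left) and for slow and fast fibre markers (right). 27 of the 32 genes lie above 0, PDPR lies lowest at -2.27, and the slow markers lie above 0 and the fast markers below 0 without exception.

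Neighbouring steps of metabolism were read from lists that also held no gene past limma. Succinate dehydrogenase carries out a step of the cycle not covered above. SDHD, a membrane anchor of succinate dehydrogenase, was at 186, 184 and 141 FPKM in Wagyu and at 233, 220 and 315 FPKM in Chinese Red Steppes, without overlap (log2 fold change -0.58, standard error 0.19, limma adjusted p = 0.273). The other subunits SDHA, SDHB and SDHC, named for completeness after their values were seen, had log2 fold changes of 0.19, -0.03 and 0.01. ACO1, the cytosolic aconitase, had a log2 fold change of 0.43 (standard error 0.17, limma adjusted p = 0.324).

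All 7 tested genes for lactate and pyruvate had a fold change below 0, with a median of -0.26. Without RC6, 5 of the 7 did, and the median lay further from 0 at -0.35. LDHB, the lactate dehydrogenase subunit of oxidative tissues, was at 277 FPKM in RC6 and at 91.9 to 138 FPKM in the others, and SLC16A1, a lactate carrier, stood at 7.29, 5.98 and 13.3 FPKM in the Chinese Red Steppes libraries. Their log2 fold changes of -0.15 and -0.23 became 0.35 and 0.08 without RC6; both genes were named after their values were seen. SLC16A3, the lactate exporter of glycolytic cells, was at 24.3, 14.3 and 15.5 FPKM in Wagyu and at 44.7, 57.0 and 26.7 FPKM in Chinese Red Steppes. The lowest Chinese Red Steppes value, in RC6, lay just above WC616 (log2 fold change -1.17, standard error 0.30, limma adjusted p = 0.202). GPT, which converts alanine and pyruvate into each other, had a log2 fold change of -0.77 (standard error 0.26, limma adjusted p = 0.285). Its breeds overlapped, with WC616 just above RC5, and the log2 fold change was -0.61 without RC6.

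ME2, the mitochondrial NAD-dependent malic enzyme that turns malate into pyruvate, was higher in every Wagyu library. It was at 28.1, 28.7 and 24.9 FPKM in Wagyu and at 14.6, 19.6 and 14.6 FPKM in Chinese Red Steppes. The log2 fold change was 0.72 (standard error 0.16, limma adjusted p = 0.177), and RC6 lay beside RC4. Of the 11 tested carriers and malic enzymes, 6 had a fold change above 0 and 5 below, and 5 lay above and 6 below without RC6.

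Genes for the lipoyl and thiamine cofactors, which pyruvate and 2-oxoglutarate dehydrogenase both need, had 7 of 8 fold changes below 0, with a median of -0.24, and 6 of 8 without RC6, with a median of -0.09. LIPT1, a lipoyl transferase, was at 1.19, 1.11 and 1.89 FPKM in Wagyu and at 2.34, 2.79 and 3.25 FPKM in Chinese Red Steppes. Its values did not overlap (log2 fold change -0.67, standard error 0.19, limma adjusted p = 0.233).

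Among the transcription regulators of oxidative metabolism, 6 of 10 tested genes had a fold change above 0, and 5 of 10 without RC6. ESRRA, an oestrogen-related receptor known to act on cycle genes, was at 151, 189 and 178 FPKM in Wagyu and at 119, 90.9 and 114 FPKM in Chinese Red Steppes. The Wagyu values were all higher (log2 fold change 0.67, standard error 0.16, limma adjusted p = 0.199), whereas the median of the 32 genes lay slightly below 0. PPARGC1B, a coactivator of this receptor, had a log2 fold change of 0.57 (standard error 0.20, limma adjusted p = 0.290) and PPARA, a fatty acid receptor, one of 0.52 (limma adjusted p = 0.370), which was 0.26 without RC6, both without overlap between the breeds.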

How the data were processed

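FPKM values of 21972 genes were deposited by the authors for each library. For 205 genes the authors also deposited raw counts, a signal per breed (the mean of size-factor scaled counts), a log2 fold change between the breeds and an FDR. The signal, fold change and FDR were not used, and none of the 34 genes is among the 205. The study's methods name TopHat and Bowtie with RPKM, whereas the processing notes name HISAT2 and UMD3.1, and which made the values was not settled. The sources used here do not give how strand was handled. Reads were recovered from the FPKM as whole numbers for 16770 of 16770 genes above 0 (100%, tolerance 1e-06 relative to the count in each library). The library totals needed for this, given here as reads counted to genes, were derived from the deposited counts and FPKM of the 205 genes. The recovered reads equal the deposited counts for 203 of the 205. Because the totals came from those counts, this is no independent check of the recovery. The smallest gene length that gave whole numbers was taken, so the reads of a gene may be too low by a common factor. The recovered reads made up 99.78% to 99.82% of the reads counted to genes in a library. A counted read may stand for a pair.

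The main test was limma 3.58.1 in R 4.3.3 (lmFit, eBayes with trend, two-sided, Benjamini-Hochberg over the 9990 genes whose mean FPKM reached 1) on log2(FPKM + 1). A pseudocount of 1 understates changes of low genes. edgeR 4.0.16 (quasi-likelihood) and DESeq2 1.42.0 on the recovered reads, other scalings, filters and pseudocounts, and leaving out each library were alternatives. edgeR called 8 genes and DESeq2 237. The main limma, edgeR and DESeq2 fits were each run on simulated data. The alternatives in scaling, filter and pseudocount and the fits without 1 library were not. Ratios used exact permutation tests (scipy 1.17.1). DESeq2 without each library and the neighbours of PDPR were added after the data were seen. Members and gene lists were chosen with earlier results of these data known. Values per library are given for the 12 members with the smallest p, the 4 highest and the kinases, and for up to 3 genes by p of each list. PC, which meets none of these rules, and genes marked as named after their values were seen are given as well. The study took its samples from 3 animals of each breed, so the libraries of a breed were treated as separate animals. Intervals cover counting error only. Of the list for the remaining steps of the cycle, 1 gene and the count over the list are not reported here.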

Additional observations from a re-analysis of the deposited data

How the results depend on the processing

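Over 14 alternatives, 447 fold changes of the 32 tested genes were recomputed, of which 424 kept their direction and their side of the threshold, 22 changed sign and 1, that of GOT1 under DESeq2 (-0.91), passed. The changes of sign arose in 14 genes and only where a library was left out. The lowest and highest log2 fold changes without 1 library were -0.47 and 0.0509 for IDH2, -0.17 and 0.10 for IDH3B, -0.15 and 0.11 for IDH3G, -0.11 and 0.022 for OGDH, -0.0528 and 0.028 for DLST, -0.45 and 0.0555 for SUCLG2, and -0.12 and 0.0858 for MDH2. They were -0.16 and 0.35 for PC, -0.0066 and 0.13 for PDHA1, -0.0102 and 0.31 for PDK1, -1.07 and 0.19 for PDK4, -0.19 and 0.10 for MPC2, -0.15 and 0.0213 for GOT2, and -0.20 and 0.0181 for GLUD1. Without 1 library, the differences between the breeds in log2 ratios ran from -0.98 to 0.41 for PDK4 to PDK2, from -1.19 to 0.0599 for PDK4 to PDHA1, from -0.27 to 0.34 for PC to PDHA1, from -0.37 to 0.37 for IDH2 to IDH3A and from -0.41 to 0.0315 for MDH1 to MDH2. Counts over all genes moved from 2 to 1 with a pseudocount of 0.1, to 0 with every gene above 0 FPKM or with at least 5 FPKM, to 4 with equal sums without mitochondrially encoded genes, to 8 with edgeR, to 237 with DESeq2, and to between 0 and 3 without 1 library; the cause was not tested. Of the 34 genes, DESeq2 called 1 lower with all libraries, 1 without WC616, RC4 or RC6 and 0 without WC719, WC921 or RC5. Genes without overlap were 5 under median ratio scaling, 5 under quantile normalization, and 4 to 11 without 1 library, where fewer samples make overlap rarer. The share over all genes was worked out for the main fit only, so these counts cannot be set against a background. Quantile normalization moved the median log2 fold change of the set to -0.21. No paired analysis was made, because the libraries came from separate animals and the study describes no pairing between the breeds. Depth limits PCK2 and PDP2, at 3 to 26 reads a library.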
